A study of Rattus norvegicus with 6 samples.

Results

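The genes described here encode the machinery of regulated exocytosis, the calcium-triggered fusion of secretory vesicles with the plasma membrane. They were taken from a list of 39 rat genes (SNAREs, synaptotagmins, Rab3 proteins, priming factors and vesicle membrane proteins) by the rule that a probe set counts when the array's annotation gives 1 of these symbols alone. Single symbols were first brought up to date through the gene ID. By that rule 35 of the 39 had at least 1 probe set, 51 probe sets in all, out of 4736 genes named singly on the array. Napb, Napg, Snapin and Stx2 had none by this rule and are left out. RNA came from whole adrenal gland of the spontaneously hypertensive rat (SHR), an inbred strain that develops high blood pressure, and of the Wistar-Kyoto rat (WKY), its usual control strain with normal blood pressure. Each strain had 3 arrays (an Affymetrix rat expression array), and the measure was 1 intensity per probe set and array. The labels used here name no treatment, age or sex and do not say whether a sample is 1 animal or a pool, so the p-values speak of the spread among these 6 samples, part or all of which may be technical. The design asks which of these transcripts have unlike levels in the glands of the 2 strains.

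Chromaffin cells of the adrenal medulla store catecholamines and peptides in dense-core granules and release them when acetylcholine from the splanchnic nerve lets calcium into the cell. Fusion is driven by a complex of SNARE proteins, in which a vesicle SNARE (synaptobrevin, encoded by the Vamp genes) zips together with syntaxin and SNAP-25 on the plasma membrane. Munc13 and CAPS proteins prime the vesicle, Rab3 and its effectors tether it, complexin holds the assembled complex, and synaptotagmin senses calcium. Afterwards the ATPase NSF and its adaptor alpha-SNAP take the SNARE complex apart for reuse. Nerve terminals use the same proteins, and cells of the adrenal cortex, which make steroids, also use widely expressed members such as SNAP-23, syntaxin-4 and cellubrevin.

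The gland's own marker genes were read well on all arrays. Star, which brings cholesterol into the mitochondria of cortical cells, read 48290.9 to 64550.4 by AB001349_at, and Pnmt, which makes adrenaline in the medulla, read 11742.3 to 21252.3. The arrays had medians of 798.3 to 899.5 and log2 values that correlated at 0.935 to 0.956 within a strain and 0.911 to 0.929 between strains (correlations over probe sets of 1 array pair, not over replicates). The ratio of 3' to 5' signal of the hexokinase control, which rises as RNA degrades, was 4.21 in SHR replicate 2 and 1.96 to 2.54 elsewhere. The same ratio of the GAPDH control was not raised in SHR replicate 2, at 0.947 within a range of 0.901 to 1.14 over all arrays. Hybridization clock times in the array settings, split at gaps over 60 minutes, gave 2 inferred runs. The date was not used, so these 2 runs rest on the time of day alone. The first held SHR replicate 1 and every WKY array, and the second held the other SHR arrays. A fit with the run as a block therefore sets SHR replicate 1 against the WKY arrays, and its values are given for the probe sets it moved most and drawn for all 31 in the plot of differences.

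No exocytosis probe set passed the test for a difference between the strains. Of the 51 probe sets, 31, standing for 24 genes, were bright enough to be tested (mean log2 level over all arrays above the 40th percentile), and limma called 0 of the 31 at an adjusted p under 0.05, against 1.95% of all 5244 tested probe sets (1.07% higher and 0.877% lower in SHR). The smallest adjusted p among them was 0.134. At an unadjusted p under 0.05 there were 4, or 12.9%, beside 13.9% of all tested probe sets: Vamp2 and Napa, higher in SHR (6.77% of all), and Snap25 and Syngr1, lower (7.11% of all). The strains did not overlap in 6 of the 31, or 19.4%, beside 20.7% of all tested probe sets, with 3 higher in SHR (10.2% of all) and 3 lower (10.5% of all). Both shares lie near the background of the array.

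Differences are given as SHR minus WKY on the scale log2(intensity + 181.5), where the pseudocount of 181.5 shrinks the change of dim probe sets. On that scale 15 of the 31 were positive and 16 negative, with a median of -0.03 beside -0.01 over all tested probe sets, and they ranged from -1.10 for 1 Syngr1 probe set to 0.68 for Syt11. The median size of the difference, whatever its sign, was 0.29 in the 31 and 0.22 in all tested probe sets. A difference of at least 2-fold was found in 1 of the 31 (3.23%, beside 4.10% of all). The 95% interval of limma lay wholly inside a 2-fold change in either direction for 22 of the 31, and for the other 9 it reached past that size. A p that misses the threshold does not show that the strains have equal levels, and the interval gives the size of difference that these arrays leave possible.

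**Figure D1:**
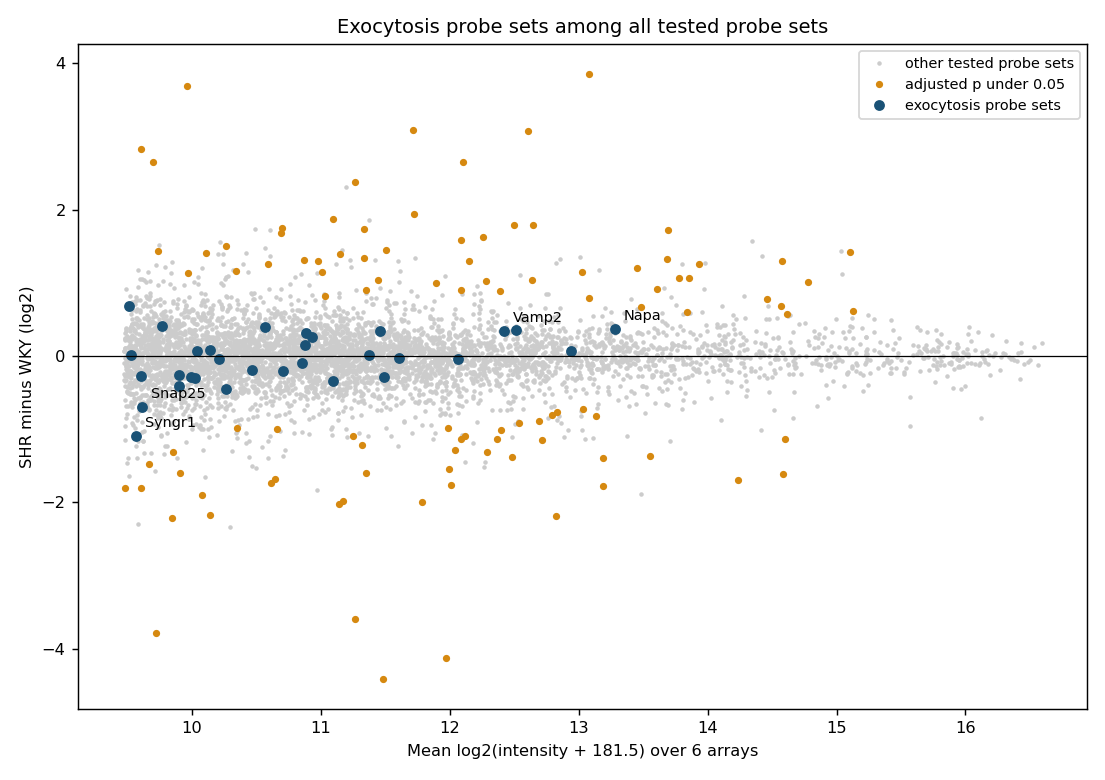
Mean level (log2 of intensity plus 181.5, over 6 arrays) against the difference between strains (SHR minus WKY, log2) for each of the 5244 tested probe sets. Grey points are other probe sets, orange points those with an adjusted p under 0.05, and blue points the 31 exocytosis probe sets, none of which is orange; the 4 with an unadjusted p under 0.05 are named.

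The spread between arrays of a strain set how small a difference could be seen. The within-strain SD of the 31 had a median of 0.26 on the log2 scale, the same as for all tested probe sets, and ran from 0.06 for the less variable Vamp2 probe set to 0.72 for Syt11. The median of the 31 deviated from its mean over arrays by no more than 0.06 on any array, so no array was high or low for these genes as a group. With the run as a block, 25 of the 31 kept their sign, 1 had an unadjusted p under 0.05 (9.19% of all tested probe sets did) and 0 were called, against 0.381% of all tested probe sets. The 4 at an unadjusted p under 0.05 became 1 without SHR replicate 3, 2 without WKY replicate 1 and 1 without WKY replicate 3, Syngr1 being among them each time.

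**Figure D2:**
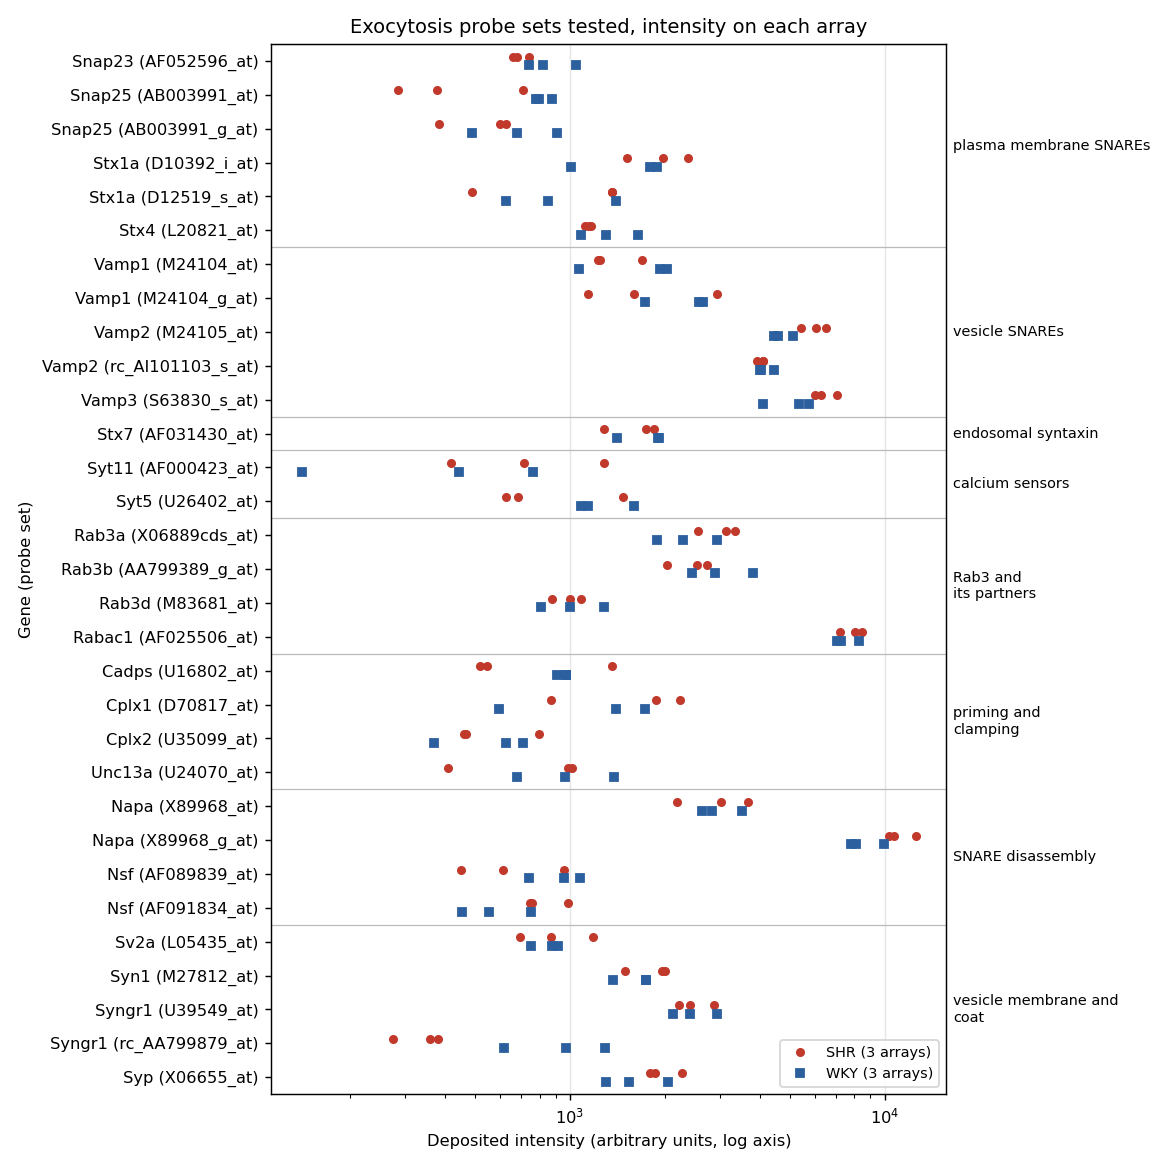
Deposited intensity (log axis) of each of the 31 tested exocytosis probe sets on the 3 SHR arrays (red circles) and the 3 WKY arrays (blue squares), grouped by the role of the protein. The strains are fully apart in 6 probe sets, of Snap23, Snap25, Vamp2, Vamp3, Napa and Syngr1, and overlap in the other 25.

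Among the SNAREs of the plasma membrane, Snap25 encodes the neuronal and endocrine SNAP-25, the target of several botulinum toxins. Its probe set AB003991_at read 709.3, 377.1 and 283.1 in SHR replicates 1 to 3 and 873.8, 798.9 and 777.7 in WKY. All SHR arrays lay below all WKY arrays, but SHR replicate 1 by a small margin, and the lower SHR values are those of the second hybridization run. The difference was -0.70 ± 0.30 (SE, n = 3 each; 95% interval -1.39 to -0.01; limma adjusted p = 0.349), and -0.16 with the run as a block (adjusted p = 0.921). It passed an unadjusted p of 0.05 in 1 of the 6 fits that leave out 1 array. A second Snap25 probe set, AB003991_g_at, read 625.5, 599.0 and 383.0 in SHR and 487.8, 911.8 and 680.8 in WKY, with the strains overlapping, at -0.28 ± 0.29 (adjusted p = 0.724). Both tested Snap25 probe sets thus had a negative sign and neither was called.

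Snap23 encodes the widely expressed relative of SNAP-25. AF052596_at read 740.2, 657.2 and 680.8 in SHR and 1047.8, 822.2 and 741.2 in WKY. The strains did not overlap, yet the highest SHR and the lowest WKY array nearly touched, and the difference of -0.26 ± 0.22 did not pass the test (limma adjusted p = 0.659; within-strain SD 0.16; interval -0.77 to 0.25). Stx1a encodes syntaxin-1A, the partner of SNAP-25 in chromaffin cells. D10392_i_at read 2375.0, 1514.6 and 1976.7 in SHR and 1794.2, 1003.7 and 1891.9 in WKY, overlapping, at 0.32 ± 0.27 (adjusted p = 0.656) and 0.59 with the run as a block. The second Stx1a probe set, D12519_s_at, was at 0.08 ± 0.39 (0.953), with an interval from -0.82 to 0.99, and at 0.49 with the run as a block. Stx4, a syntaxin of many cell types, was at -0.19 ± 0.20 (0.728), its mean ± SD being 1142 ± 25.6 in SHR and 1344 ± 286 in WKY (n = 3 each). With the endosomal syntaxin gene Stx7, whose AF031430_at read 1283.5, 1843.4 and 1741.7 in SHR and 1408.5, 1906.9 and 1917.2 in WKY, the strains overlapped at -0.10 ± 0.21 (0.878; -0.38 with the run as a block). Across the 6 tested probe sets of plasma membrane SNAREs the median was -0.22.

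Of the 5 vesicle SNARE probe sets 2 were positive and 3 negative, with a median of -0.04. Vamp2 encodes synaptobrevin-2, the main vesicle SNARE of chromaffin granules, and Vamp3 encodes cellubrevin, which is present in most cells. M24105_at of Vamp2 read 5432.6, 6056.0 and 6496.4 in SHR and 4569.4, 5089.9 and 4447.3 in WKY. Every SHR array lay above every WKY array, a difference of 0.34 ± 0.14 or 1.26-fold (95% interval 0.02 to 0.66; limma adjusted p = 0.329), and 0.20 with the run as a block (0.837). The other Vamp2 probe set, rc_AI101103_s_at, read 3927.6, 4093.2 and 4089.9 in SHR and 4447.4, 4003.7 and 4027.5 in WKY. There the strains overlapped and the difference was -0.04 ± 0.13 (adjusted p = 0.931; interval -0.35 to 0.27), so the higher level in SHR was seen by 1 of the 2 Vamp2 probe sets only.

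Vamp3 (S63830_s_at) read 7050.6, 6018.1 and 6260.0 in SHR and 4087.5, 5727.2 and 5344.7 in WKY. Here too no SHR value was as low as a WKY value, at 0.35 ± 0.17 (95% interval -0.03 to 0.73; limma adjusted p = 0.395), and the value was 0.48 with the run as a block (0.635). Vamp1 encodes synaptobrevin-1, which predominates in parts of the spinal cord and at motor endings. M24104_g_at read 2938.7, 1590.7 and 1142.2 in SHR and 2638.4, 1735.9 and 2567.2 in WKY, overlapping, at -0.34 ± 0.32 (0.697). Its sign depended on the second run, being 0.34 with the run as a block. The companion probe set M24104_at was at -0.21 ± 0.26 (0.771). The Vamp genes therefore held positive and negative differences and no call.

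Promoter sequence was looked up for the 2 of the 4 genes at an unadjusted p under 0.05 that have an entry, Vamp2 and Napa. It shows what lies upstream of the pair with 1 probe set higher in SHR. Neither was called (limma adjusted p = 0.329 and 0.311). The second tested probe set of each overlapped between strains, at -0.04 for Vamp2 and -0.03 for Napa. Napa encodes alpha-SNAP and is described with NSF further on. The windows are the 250 bases before the RefSeq start in assembly GRCr8, both on the plus strand, chr10:54292539-54292788 for Vamp2 and chr1:85915185-85915434 for Napa. Capitals mark matches on either strand to 6 motifs, a match on the minus strand being printed as its reverse complement. The letters searched were TGACGTCA for a cyclic AMP response element and GGGCGG for a GC box. For an E-box they were CACGTG, the usual core of that element. The CCAAT box was searched by the letters of its name. A TATA box was taken as TATAAA, and the left part of the neuron-restrictive element RE1 as TTCAGCACC. No match overlaps another in these windows.
Vamp2: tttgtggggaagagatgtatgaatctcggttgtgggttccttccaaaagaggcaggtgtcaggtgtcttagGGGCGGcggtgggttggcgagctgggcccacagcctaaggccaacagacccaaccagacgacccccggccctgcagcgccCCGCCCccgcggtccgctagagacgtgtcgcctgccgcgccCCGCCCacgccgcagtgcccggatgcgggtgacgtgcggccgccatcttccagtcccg
Napa: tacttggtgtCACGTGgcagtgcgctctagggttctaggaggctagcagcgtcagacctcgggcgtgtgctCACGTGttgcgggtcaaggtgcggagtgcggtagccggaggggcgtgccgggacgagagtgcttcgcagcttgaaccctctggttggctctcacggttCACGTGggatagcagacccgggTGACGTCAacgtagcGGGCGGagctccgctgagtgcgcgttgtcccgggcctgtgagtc
The Vamp2 window, 68.0% G and C, held 3 GC boxes and no other match. The Napa window, 64.8% G and C, held a cyclic AMP response element at 59 to 52 bases before the start, a GC box at 44 to 39 and 3 E-boxes. Of the 35 measured genes, 28 had an entry, with 29 windows because Unc13b has 2. A GC box was present in 21 of the 29 (72.4%, beside 38.9% of the windows of 21851 entries of protein-coding genes) and a CCAAT box in 13 (44.8% beside 35%). The cyclic AMP response element was present in 3, those of Napa, Syn1 and Vamp1 (10.3% beside 1.89%), the E-box in 2, Napa and Nsf (6.90% beside 6.16%), and the TATA box and the RE1 part in 0 (beside 12.1% and 0.348%). A match is a run of letters and not evidence that a factor binds there, and these data hold no measurement of binding.

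Of the calcium sensors, most were too dim to be tested. Syt1 encodes synaptotagmin-1, the fast calcium sensor of neurons and chromaffin cells, yet X52772cds_at read 161.2, 284.1 and 39.4 in SHR and 147.7, 58.0 and 118.9 in WKY. These values lie near or below the pseudocount and give no order of the strains. Syt4, which encodes a synaptotagmin of secretory granules, read 444.4, 470.2 and 608.4 in SHR and 419.9, 388.4 and 608.6 in WKY by U14398_g_at, and Syt7, the slow high-affinity sensor, reached 771.6 in SHR replicate 2 and 171.3 to 288.9 on the other 5 arrays. Doc2a and Doc2b, cytosolic calcium-binding proteins of the release pathway, averaged 302 to 495 in either strain. All of these stayed under the filter.

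Syt5 and Syt11 were the 2 tested sensors. Syt5 encodes a synaptotagmin found on dense-core vesicles. U26402_at read 626.0, 1471.5 and 683.4 in SHR and 1087.1, 1137.8 and 1601.8 in WKY, with SHR replicate 2 inside the WKY range, at -0.46 ± 0.31 (limma adjusted p = 0.572). With the run as a block it was -0.83 (0.639). Syt11, which encodes a synaptotagmin that does not bind calcium, read 418.7, 714.9 and 1283.0 in SHR and 444.8, 763.5 and 140.7 in WKY. Its difference of 0.68 ± 0.47 (0.574; interval -0.41 to 1.78) came with a high SHR replicate 3 and a low WKY replicate 3, and it was 0.06 with the run as a block.

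Rab3 proteins are small GTPases on the vesicle. Rab3a, the neuronal and endocrine form, read 3331.8, 2544.5 and 3128.8 in SHR and 1882.2, 2926.6 and 2278.4 in WKY (X06889cds_at), overlapping through 1 WKY array, at 0.34 ± 0.20 (limma adjusted p = 0.504) and 0.49 with the run as a block. Rab3d, the form of exocrine granules, read 1003.0, 1084.6 and 877.6 in SHR and 807.8, 1282.2 and 999.9 in WKY, at -0.04 ± 0.22 (0.964). Rabac1, which encodes a prenylated Rab acceptor that binds Rab3 and synaptobrevin, read 7193.0, 8483.2 and 8039.2 in SHR and 8291.2, 7030.5 and 7279.4 in WKY, at 0.07 ± 0.13 (0.867). Its interval of -0.24 to 0.38 lay well inside a 2-fold change. Of the Rab3 effectors, Rph3a (rabphilin) read 97.4, 97.6 and 87.2 in SHR and 109.2, 67.6 and 119.6 in WKY, and Rims1, an active zone scaffold, read 20.5 to 249.6, and neither was tested.

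Rab3b, an endocrine form of Rab3, had a dim probe set, under the filter, in which the strains stood apart. AA799389_at read 104.1, 120.1 and 123.2 in SHR and 327.4, 433.8 and 528.4 in WKY, with all SHR arrays below all WKY arrays and below the pseudocount. It was not part of the test. When no filter was applied, as one of the alternatives, it stood at -1.03 ± 0.21 (limma adjusted p = 0.0898), where 83 of all 8740 probe sets were called. The second Rab3b probe set, AA799389_g_at, which is of the same source sequence, read 2730.7, 2523.1 and 2030.1 in SHR and 3813.2, 2431.9 and 2885.4 in WKY. It was tested, the strains overlapped, and the difference was -0.29 ± 0.21 (adjusted p = 0.576).

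**Figure D3:**
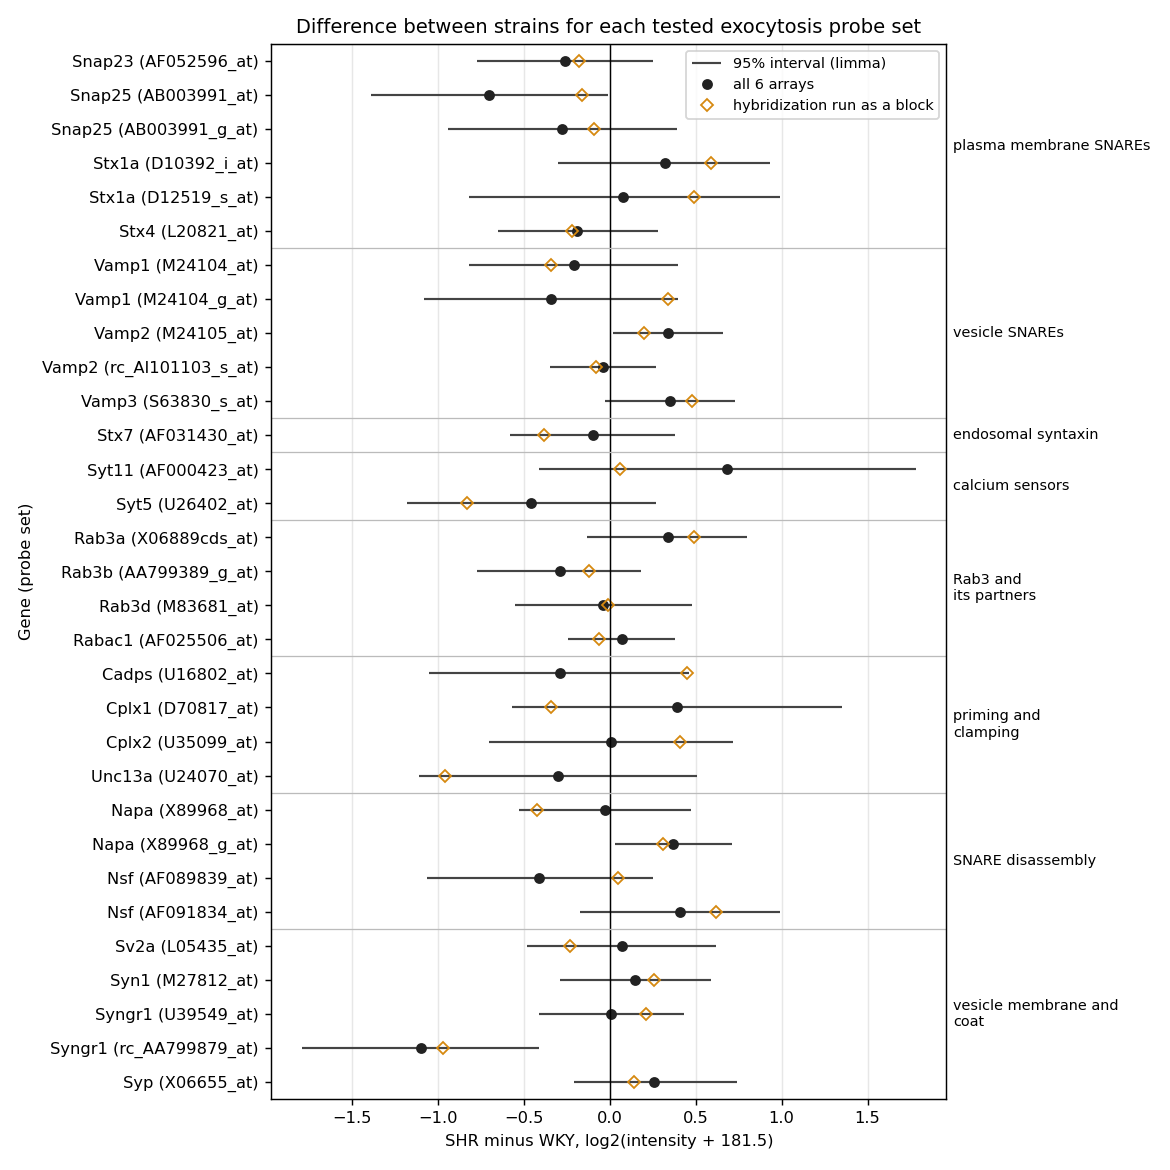
Difference between strains (SHR minus WKY, log2 of intensity plus 181.5) for the 31 tested probe sets: filled circles with 95% intervals are from the fit to all 6 arrays, open diamonds from the fit with the hybridization run as a block. Intervals that leave out 0 are those of Snap25 (AB003991_at), Vamp2 (M24105_at), Napa (X89968_g_at) and Syngr1 (rc_AA799879_at), and the diamonds of 6 probe sets lie on the other side of 0 from their circles.

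The priming and clamping factors varied widely between arrays. Cadps encodes CAPS, which primes dense-core granules. U16802_at read 1361.1, 517.0 and 545.7 in SHR and 972.5, 967.5 and 906.7 in WKY: SHR replicate 1 lay above the WKY arrays and the SHR arrays of the second run lay below them. The difference was -0.29 ± 0.33 over all arrays (limma adjusted p = 0.741) and 0.45 with the run as a block (0.721), opposite in sign. Unc13a encodes Munc13-1, the main priming factor of synapses, and read 411.0, 1013.1 and 985.0 in SHR and 1382.2, 963.6 and 680.0 in WKY. It was at -0.30 ± 0.35 (0.753), and at -0.96 ± 0.39 with the run as a block (limma adjusted p = 0.528), the 1 unadjusted p under 0.05 of that fit, which rests on SHR replicate 1 alone. Unc13b, which encodes Munc13-2, read 269.6, 434.5 and 186.0 in SHR and 274.1, 335.6 and 116.6 in WKY, overlapping, and was not tested.

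Cplx1 and Cplx2 encode the complexins, small proteins that bind the assembled SNARE complex. Cplx1 (D70817_at) read 869.2, 1877.0 and 2241.0 in SHR and 1397.7, 594.1 and 1724.0 in WKY. The difference was 0.39 ± 0.42 (limma adjusted p = 0.727) and -0.34 with the run as a block, so that no sign can be given. Cplx2 read 797.5, 467.6 and 460.1 in SHR and 624.2, 370.9 and 708.1 in WKY, at 0.01 ± 0.31 (0.991; interval -0.70 to 0.72), and at 0.41 with the run as a block.

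Napa, like Vamp2 and Vamp3, had a probe set that stood higher in SHR without overlap. Alpha-SNAP, its product, recruits the ATPase NSF to spent SNARE complexes. X89968_g_at read 10686.3, 10295.8 and 12535.6 in SHR and 9954.7, 8093.4 and 7795.7 in WKY. All SHR arrays lay above all WKY arrays, at 0.37 ± 0.15 or 1.29-fold (95% interval 0.03 to 0.71; limma adjusted p = 0.311), and at 0.31 with the run as a block (0.760). Its companion X89968_at read 2183.3, 3685.5 and 3017.6 in SHR and 3520.8, 2834.0 and 2630.2 in WKY, overlapping, at -0.03 ± 0.22 (0.967) and -0.42 with the run as a block. Nsf had 2 probe sets that pointed in opposite directions. AF089839_at read 957.0, 611.1 and 451.4 in SHR and 957.5, 742.7 and 1078.5 in WKY, at -0.41 ± 0.28 (0.574; 0.05 with the run as a block), while AF091834_at read 985.5, 748.0 and 754.3 in SHR and 453.9, 752.8 and 552.5 in WKY, at 0.41 ± 0.25 (0.519; 0.62 with the run as a block).

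Vesicle membrane proteins held the largest difference of the tested probe sets. Syngr1 encodes synaptogyrin-1, a tetraspan vesicle protein. By rc_AA799879_at it read 381.7, 357.7 and 273.2 in SHR and 615.1, 972.8 and 1290.8 in WKY. The 3 SHR arrays lay close together below the WKY arrays, which were spread over more than their own lowest value. The difference was -1.10 ± 0.30, or 2.14-fold lower (95% interval -1.79 to -0.41; limma adjusted p = 0.134), and -0.97 ± 0.44 with the run as a block (0.595). Its unadjusted p was under 0.05 in 6 of the 6 fits without 1 array, with adjusted p of 0.122 to 0.317. The other tested Syngr1 probe set, U39549_at, read 2868.9, 2217.3 and 2397.3 in SHR and 2395.8, 2927.5 and 2127.6 in WKY, overlapping, at 0.01 ± 0.18 (0.991; interval -0.41 to 0.43). A further one, U39549_g_at, was under the filter with a mean ± SD of 223 ± 79.6 in SHR and 330 ± 144 in WKY (n = 3 each).

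None of the other tested vesicle proteins passed the test. Syp, which encodes synaptophysin, the most used marker of small synaptic-like vesicles, read 1790.6, 2268.1 and 1856.2 in SHR and 1305.1, 1544.4 and 2039.9 in WKY, at 0.26 ± 0.21 (limma adjusted p = 0.622). Syn1, which encodes synapsin-1, a phosphoprotein that ties vesicles to actin in nerve terminals, read 1952.3, 2000.9 and 1494.7 in SHR and 1741.7, 1736.6 and 1365.2 in WKY, at 0.15 ± 0.19 (0.776). Sv2a, which encodes a vesicle glycoprotein bound by the drug levetiracetam, read 695.9, 870.2 and 1182.5 in SHR and 913.4, 879.4 and 753.8 in WKY, at 0.07 ± 0.24 (0.931; -0.23 with the run as a block). The strains overlapped in each of the 3 genes. The 3 probe sets of Syn2 were under the filter, and its M27925_at read 301.4, 118.4 and 359.0 in SHR and 115.3, 415.7 and 516.3 in WKY. Sv2b read 492.8, 237.7 and 454.3 in SHR and 203.0, 883.0 and 302.1 in WKY by rc_AI639484_at, also under the filter.

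A gene's probe sets did not always give the same answer. Of the 7 genes with 2 tested probe sets, 4 (Napa, Nsf, Syngr1 and Vamp2) had differences of opposite sign. In Napa, Syngr1 and Vamp2 1 of the 2 lay close to no difference, at -0.03, 0.01 and -0.04. To compare them, the log2 value (with the pseudocount) of the dimmer probe set was taken from that of the brighter on each array. This removes what moves both by the same amount on that scale. The pseudocount shrinks the change of a dim probe set more, so a fold change shared by both is not fully removed. For Syngr1 this within-array difference was 2.44, 2.15 and 2.5 in SHR and 1.69, 1.43 and 0.65 in WKY. For Vamp2 it was 0.45, 0.55 and 0.64 in SHR and 0.04, 0.33 and 0.14 in WKY, and for Nsf -0.04, -0.23 and -0.56 in SHR and 0.84, -0.02 and 0.78 in WKY. In these 3 genes the strains did not overlap, and the shifts between strains were 1.11, 0.38 and -0.81. The 2-sided exact permutation p was 0.1 for each, the smallest that 3 arrays against 3 allow, and 0.233 after Benjamini-Hochberg adjustment over the 7 genes. The other 4 overlapped, with exact permutation p of 0.2 (Snap25), 0.4 (Napa), 0.5 (Stx1a) and 0.9 (Vamp1). These p-values do not establish that the 2 probe sets of any gene differ unequally. A within-array difference also cannot show which of them follows the gene. How often the probe sets of 1 gene part in this way over the whole array was not measured.

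**Figure D4:**
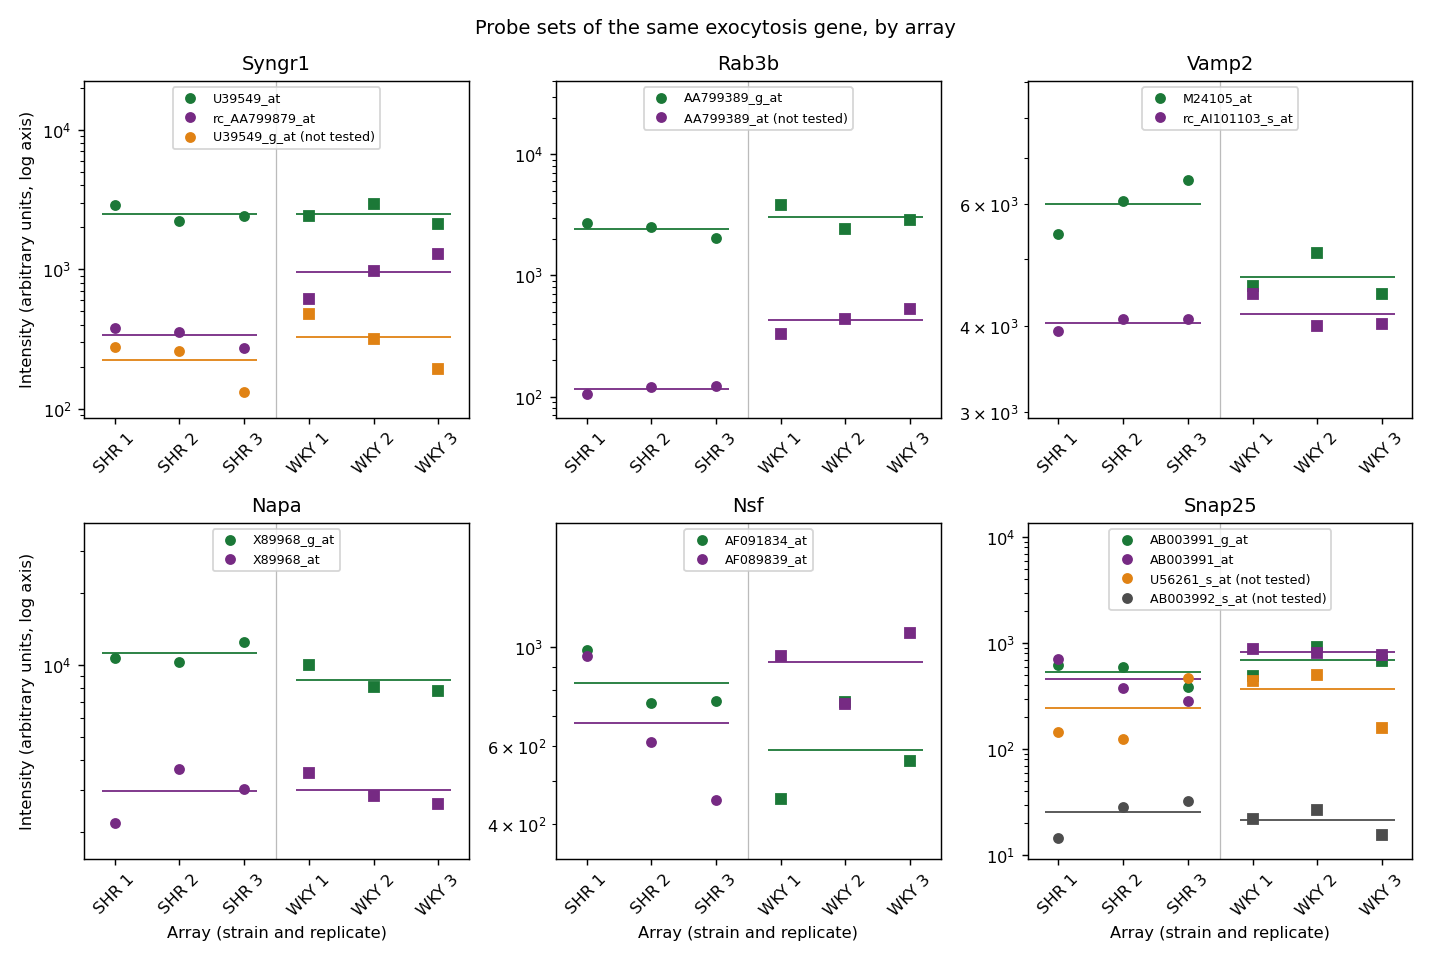
Intensity (log axis) of every probe set of 6 exocytosis genes on each array, circles for SHR and squares for WKY, 1 colour per probe set, with a line at the mean of each strain. In Syngr1 (rc_AA799879_at) and Rab3b (AA799389_at) 1 probe set is lower on all SHR arrays while the brightest overlaps between strains, and in Nsf the 2 probe sets change places.

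The 20 probe sets under the filter stood for 11 genes with no tested probe set (Doc2a, Doc2b, Rims1, Rph3a, Stx3, Sv2b, Syn2, Syt1, Syt4, Syt7 and Unc13b) and for further probe sets of Rab3b, Snap23, Snap25 and Syngr1. Their mean intensities ran from 23.3 to 490, and 6 of the 20 averaged below the pseudocount. Strains were apart in 2 of the 20 (10%, beside 11.8% of all 3496 probe sets under the filter), lower in SHR for Rab3b (6.44% of all) and higher for Sv2b (5.32% of all). For Sv2b the probe set L10362_at read 70.2, 75.0 and 77.1 in SHR and 24.1, 46.2 and 36.0 in WKY, all below the pseudocount. Stx3, a syntaxin of polarised and sensory cells, read 279.0, 444.3 and 710.7 in SHR and 371.5, 151.1 and 146.8 in WKY, overlapping through WKY replicate 1. With no filter, limma called 0 of the 51 probe sets, and 5 had an unadjusted p under 0.05, beside 11.1% of all probe sets.

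Other genes of the secretory pathway, listed by role, were read from the same fit. Of 14 tested probe sets of docking, priming and Rab regulators 0 were called, with a median of 0.17, and the smallest p was that of Exoc3, an exocyst subunit, at 1.28 ± 0.38 (limma adjusted p = 0.160). U32575_at of Exoc3 read 1231.2, 1272.1 and 1258.9 in SHR and 520.5, 724.0 and 143.1 in WKY, while its U32575_g_at, at 0.37 ± 0.24, overlapped. Next were Rabggtb, a subunit of the enzyme that prenylates Rab proteins, at -0.46 ± 0.19 (adjusted p = 0.346), and Rph3al, which encodes the Rab3 effector Noc2, at 0.29 ± 0.18 (0.528). Of 17 tested probe sets of other SNAREs and synaptotagmins 0 were called (median 0.07). The smallest p values were those of Use1, a SNARE of the endoplasmic reticulum, at -0.43 ± 0.12 (0.157), Stx12, an endosomal syntaxin, at 0.52 ± 0.16 (0.194), and Bet1l, a Golgi SNARE, at -0.74 ± 0.27 (0.260; -0.40 with the run as a block).

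Of 19 tested probe sets of other vesicle membrane proteins 0 were called (median 0.09), with Scamp1, a carrier membrane protein, at 0.58 ± 0.18 (limma adjusted p = 0.179) and the proton pump subunit genes Atp6v1a at 0.34 ± 0.14 (0.343) and Atp6v1c1 at -0.43 ± 0.21 (0.406; -0.09 with the run as a block). Endocytosis and recycling genes gave 0 calls in 29 tested probe sets (median -0.09), with Bin1, an amphiphysin, at -0.61 ± 0.16 (0.125), the dynamin gene Dnm2 at -0.57 ± 0.26 (0.389) by L25605_at and the phosphatase gene Synj2 at -0.47 ± 0.24 (0.426). The second Dnm2 probe set, rc_AA851887_s_at, had the opposite sign, at 0.31 ± 0.25 (0.634), and L25605_at was at -0.13 with the run as a block. A second Bin1 probe set was at -0.16 ± 0.17 (0.725). The granule cargo list gave 2 calls in 19 tested probe sets (median -0.12). It also holds genes that are not cargo, the cytosolic enzymes Th and Pnmt and the vesicle transporters Slc18a1 and Slc18a2. Several of its genes, Dbh among them, are also in the list of chromaffin cell markers. A probe set of Pdyn, the dynorphin precursor, rose by 1.79 ± 0.13 in SHR (limma adjusted p = 0.000651, and 0.0294 with the run as a block), while its second tested probe set, M32783cds_i_at, was at 0.69 ± 0.17 (0.102). Dbh, the granule enzyme that makes noradrenaline, changed by -1.29 ± 0.15 (0.00548, and 0.126 with the run as a block), its mean ± SD being 2513 ± 67.8 in SHR and 6425 ± 877 in WKY (n = 3 each). Cpe, a granule carboxypeptidase, stood at 0.74 ± 0.15 (0.0514). Thus 2 cargo probe sets were called, in opposite directions, and no probe set of the release machinery was, a contrast that was not itself tested.

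**Figure D5:**
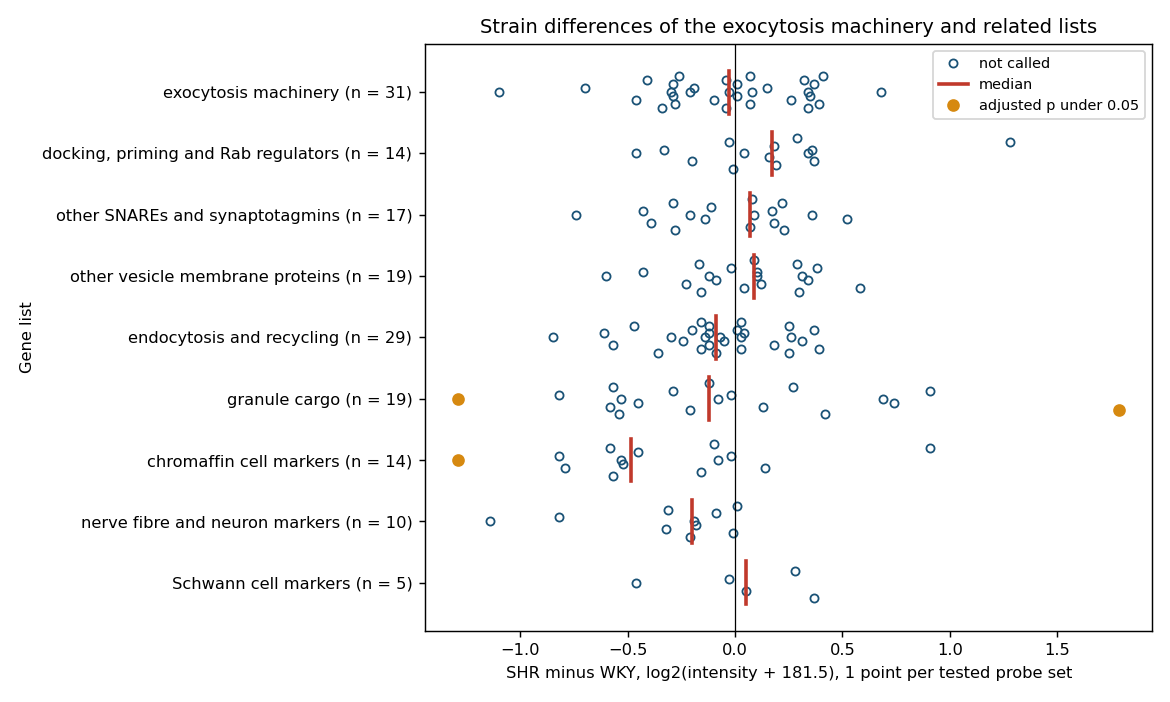
Difference between strains (SHR minus WKY, log2 of intensity plus 181.5) of each tested probe set in the exocytosis machinery, 5 related lists and 3 lists of cell type markers, with the median of each list in red and probe sets with an adjusted p under 0.05 in orange. The median is -0.03 for the exocytosis machinery, -0.12 for the granule cargo and -0.48 for the chromaffin cell markers. The granule cargo and chromaffin lists share genes, Dbh among them.

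In whole gland, fewer cells of a type and less RNA per cell cannot be told apart, so markers of the cells that use this machinery are given beside it. Of 14 tested probe sets of chromaffin cell markers, 12 were negative, 1 was called (Dbh) and the median was -0.48 (-0.34 with the run as a block). The list was uneven, with Th at -0.02, Chgb at -0.08 and Ddc at 0.14. Slc18a1 at -0.82, Npy at -0.58, Pnmt at -0.57, Scg2 at -0.53 and Penk at -0.45 were lower in SHR and not called. At an unadjusted limma p under 0.05, 5 were lower and 1 higher, beside 7.11% and 6.77% of all tested probe sets. Slc18a2 stood at 0.91 ± 0.38 (limma adjusted p = 0.329). Gch1 gave several of the negative values, at -0.79, -0.52 and -0.16. The summed intensity of the 14 ran from 50086 to 66080 in SHR and 64143 to 77189 in WKY, overlapping. Of 10 tested probe sets of nerve fibre and neuron markers 9 were negative and 0 called (median -0.20). Their sums were 10304 to 12609 in SHR and 13021 to 15571 in WKY, which did not overlap. Prph, which encodes the peripheral neurofilament peripherin, had the smallest p there, at -1.14 ± 0.32 (limma adjusted p = 0.146). Sums also stood apart in other lists, and no sum was tested. Over the whole array, the strains did not overlap in 20.7% of single tested probe sets. Those of endocytosis and recycling genes ran from 84767 to 87593 in SHR and 90207 to 93261 in WKY. Those of docking, priming and Rab regulators ran from 31825 to 33130 in SHR and 29286 to 31670 in WKY. Schwann cell markers had 0 calls in 5 (median 0.05, sums 9287 to 10952 and 9562 to 10478). Cortex markers had 0 in 14 (median -0.09, sums 473348 to 655335 and 500234 to 700558), 6 being positive and 8 negative. Of these, Inha had the smallest p, at 0.59 ± 0.13 (limma adjusted p = 0.0732), and Nr0b1 was at 0.85 ± 0.22 (0.122). The part of the medulla and nerve markers in the exocytosis values was not tested.

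Marker lists of the remaining cell types held 1 call. Fat cell markers had 8 tested probe sets, 3 positive and 5 negative, and a median of -0.29. The 1 call, lower in SHR, was of Cfd, which encodes the fat cell protease adipsin (-2.00 ± 0.35, limma adjusted p = 0.0324, and 0.319 with the run as a block). Fabp4 was at -1.52 ± 0.52 (0.235). Sums were 36004 to 37441 in SHR and 36563 to 68629 in WKY. A large part of them was 1 Lep probe set, D49653_s_at, with means of 17195 in SHR and 17136 in WKY. Leukocyte and mast cell markers had 0 calls in 6 (median -0.14, and 0.04 with the run as a block; sums 12135 to 15928 and 13253 to 18474) and endothelial markers 0 in 3 (median -0.01; sums 5486 to 7067 and 4804 to 6986). Blood and platelet markers had 0 calls in 3, all negative (median -0.83). Their sums of 35351 to 40491 in SHR and 44694 to 100629 in WKY did not overlap either. Most of these sums was Hbb, a haemoglobin gene, with means of 34849 in SHR and 71885 in WKY.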

How the data were processed

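Whole adrenal gland RNA of 3 SHR and 3 WKY samples was read on 6 arrays of 8799 probe sets. The deposited intensity values are linear, 1 per probe set and array, and the authors scaled them, since the trimmed mean is 2504 on every array. The algorithm is not given in the sources used here. Other deposited files hold instrument settings. Fluidics modules were read from them, and hybridization runs were inferred from clock times without the date (a gap over 60 minutes). After 59 control probe sets were left out, log2(intensity + 181.5) was fitted with limma 3.58.1 in R 4.3.3 (eBayes with a trend), with the 20th percentile of the positive intensities as pseudocount. Probe sets with a mean log2 above the 40th percentile were tested (5244), with Benjamini-Hochberg adjustment over all of them and a threshold of 0.05. Symbols came from the platform annotation: 7006 probe sets had 1 symbol, 308 several and 1426 none. Single symbols were replaced by the current RefSeq symbol of the same gene ID where there was one. Members, lists and tests were chosen with earlier results of these data known. Array values are given for probe sets with an unadjusted p under 0.05 or no overlap, for the brightest probe set of most members and for genes whose tested probe sets differ in sign. From each pathway list the called genes and up to 3 genes of smallest p are named. The 3 arrays per strain limit the precision. The code was tested on simulated data. Alternatives covered normalization, pseudocount, filter, variance model, blocks, arrays left out and means over a gene's probe sets. Promoters came from RefSeq (GRCr8).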

Additional observations from a re-analysis of the deposited data

How the results depend on the processing

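No exocytosis probe set was called by limma under any of the 18 alternatives, where the smallest adjusted p ran from 0.0898 (no filter) to 0.606 (first run alone), nor among 24 genes averaged over their probe sets (64 of 3144 genes called). All called probe sets, 102 in the reported fit, numbered 60 without a trend, 53 with the replicate block, 20 with the run as a block, 1 when only the first run was fitted and 38 to 59 with 1 array left out. Exocytosis probe sets at an unadjusted p under 0.05, 4 as reported, numbered 2 with a 60th percentile filter, 2 without a trend, 1 with the replicate block, 1 with the run as a block, 0 when only the first run was fitted and 1 to 5 with 1 array left out. Their median became 0.11 with the 60th percentile filter, which leaves 16 of them. Of 542 single values, 513 kept their sign and side of the threshold and 29 turned. With the run as a block, and alike in the first run alone, Rabac1 was at -0.06, Nsf AF089839_at at 0.05, Cplx1 at -0.34, Sv2a at -0.23, Vamp1 M24104_g_at at 0.34 and Cadps at 0.45, and with median scaling Napa X89968_at was at 0.0025. With 1 array left out, values that turned ran from -0.23 to 0.05 (Stx7), -0.13 to 0.49 (Stx1a D12519_s_at), -0.10 to 0.22 (Sv2a), -0.17 to 0.11 (Rab3d), -0.07 to 0.01 (Vamp2 rc_AI101103_s_at), -0.51 to 0.03 (Unc13a), -0.19 to 0.15 (Cplx2), -0.09 to 0.13 (Syngr1 U39549_at) and -0.20 to 0.16 (Napa X89968_at). Apart from the sets with fewer arrays or probe sets, the cause was not tested. Replicate numbers did not pair the samples (correlations of deviations 0.00088, 0.01 and 0.07), so the replicate block rests on a shared number only. Dim probe sets and 3 arrays per strain limit what could be seen.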
